A study of Mus musculus with 9 samples.

Results

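The 10 genes described here are the 4 Id genes (Id1, Id2, Id3 and Id4) and 6 genes of the feedback around SMAD signalling (Smad6, Smad7, Klf10, Skil, Bmp4 and Bambi). They were chosen by name, with earlier results of these data known, and all 10 were among the 19938 genes measured. Each was read by 1 probe set. The cells were D2.OR, a line from a mouse mammary tumor that is used as a model of dormant disseminated cells. They grew in 3D in 1 of 3 matrices, with 3 Affymetrix arrays for each: collagen I in fibrillar form, collagen I in non-fibrillar form, and Matrigel, a basement membrane extract. All groups were the same line, and no further treatment or genetic change is given in the labels. The Matrigel group was formed from sample titles, because the growth label of its arrays names non-fibrillar collagen I instead. Those 3 arrays also carry accession numbers apart from the other 6, so a batch that goes with Matrigel and the matrix itself cannot be told apart.

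Id proteins are helix-loop-helix proteins without a DNA-binding region; they bind E proteins such as Tcf3, Tcf4 and Tcf12 and keep them off their target genes. Bone morphogenetic proteins (BMPs) signal through Smad1, Smad5 and Smad9, and TGF-beta and activin through Smad2 and Smad3. The BMP branch switches on Id genes directly, and both branches switch on their own inhibitors, among them Smad6 and Smad7. In the mammary gland Id2 is needed for the growth of lobules in pregnancy, and Id1 keeps cultured mammary epithelial cells dividing.

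The bases before the transcription start are shown for Id2 and Id3, whose differences passed the test in at least 1 comparison with another matrix, and for Id4, whose differences did not pass in any. Each run is the 250 bases upstream of the start in gene orientation, 5′ to 3′, from RefSeq on GRCm38.p6. Capitals mark GTCT or its complement AGAC, the short SMAD-binding core, and GGCGCC, a GC-rich element bound by BMP-branch SMADs; both strands were searched, and the palindrome GTCTAGAC was searched too.
Id2, chr12:25096093-25096342, minus strand: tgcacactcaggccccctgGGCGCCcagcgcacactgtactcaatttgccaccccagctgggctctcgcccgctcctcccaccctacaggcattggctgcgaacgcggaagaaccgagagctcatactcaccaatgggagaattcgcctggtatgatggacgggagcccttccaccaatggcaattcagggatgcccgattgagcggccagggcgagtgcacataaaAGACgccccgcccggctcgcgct
Id3, chr4:136143572-136143821, plus strand: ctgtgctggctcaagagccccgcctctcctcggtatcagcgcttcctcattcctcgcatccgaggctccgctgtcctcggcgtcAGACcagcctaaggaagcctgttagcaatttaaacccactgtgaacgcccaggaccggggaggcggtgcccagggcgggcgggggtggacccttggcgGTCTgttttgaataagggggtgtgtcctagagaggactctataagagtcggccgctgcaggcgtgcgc
Id4, chr13:48260866-48261115, plus strand: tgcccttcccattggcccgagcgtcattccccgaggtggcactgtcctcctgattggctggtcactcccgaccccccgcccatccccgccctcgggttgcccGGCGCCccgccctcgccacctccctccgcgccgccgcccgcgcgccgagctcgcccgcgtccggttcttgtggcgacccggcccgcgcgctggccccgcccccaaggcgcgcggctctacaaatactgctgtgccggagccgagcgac

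The Id2 window held 1 GTCT core and 1 GGCGCC, the Id3 window 2 cores and 0 GGCGCC, and the Id4 window 0 cores and 1 GGCGCC. Of 32851 windows of this length, 82.9% held the core, 9.59% held GGCGCC and 0.167% held the palindrome, which none of the 3 windows held. Of the 10 genes, 5 matched the promoter table, and the windows of Bmp4 and Smad6 are not printed. Bmp4, whose differences did not pass in any comparison, held 1 core and 0 GGCGCC. Smad6, lower in non-fibrillar collagen than in Matrigel, also held 1 core and 0 GGCGCC, but its window reaches into the annotated gene. The printed windows are therefore no comparison of genes that passed with genes that did not.

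The deposited values are log2 expression after RMA, and a difference of 1 means a 2-fold change. Cells in non-fibrillar collagen had lower expression of Id1, Id2, Id3, Smad6, Smad7 and Klf10 than cells in Matrigel, from 1.22-fold lower for Id1 to 1.75-fold lower for Id3. Cells in fibrillar collagen had lower Id2 and Klf10 than cells in Matrigel, and higher Id3 than cells in non-fibrillar collagen. Group means of these 6 genes ran in the order non-fibrillar collagen, fibrillar collagen, Matrigel from low to high. Id4, Skil, Bmp4 and Bambi passed the test in 0 comparisons (limma, Benjamini-Hochberg adjusted p of 0.05 or more over all genes). At an unadjusted p under 0.05, Skil was the only 1 of these 4, with 0.014 for fibrillar over non-fibrillar collagen and 0.013 for non-fibrillar collagen over Matrigel.

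**Figure D1:**
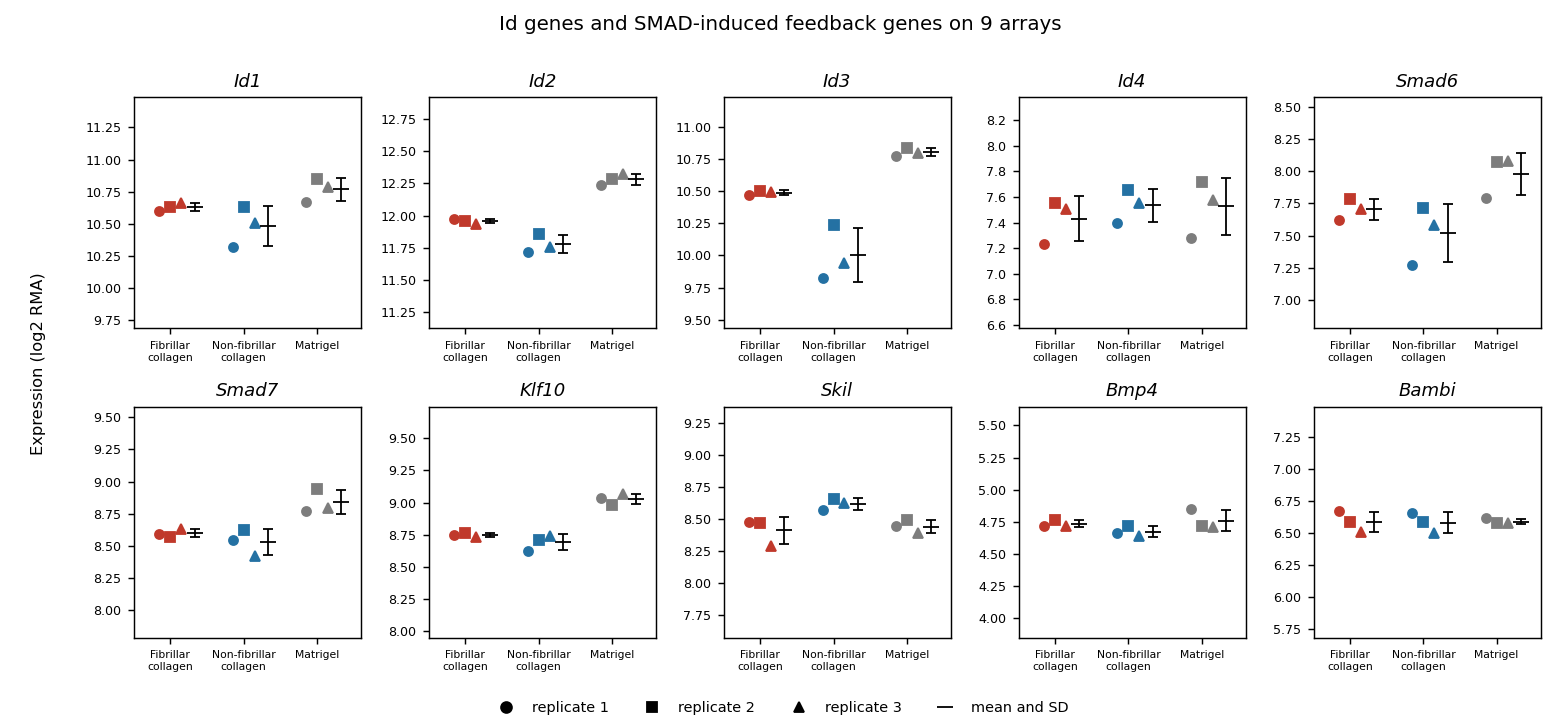
Expression of the 10 genes (log2 RMA, y axis, each panel spanning 1.8 log2 units) on each of 9 arrays, by matrix. Symbols mark the replicate number, and the bar beside each group is the mean with its SD (n = 3). All Matrigel arrays lie above all collagen arrays for Id1, Id2, Id3, Smad6, Smad7 and Klf10, for Id1 and Smad6 only just. Id3 and Smad6 each spread more in non-fibrillar collagen than in the other groups.

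Id3 showed the largest difference of the 10 genes between the collagens and between non-fibrillar collagen and Matrigel. It read 10.47, 10.51 and 10.49 in fibrillar collagen, against 9.83, 10.23 and 9.94 in non-fibrillar collagen, and the Matrigel arrays read 10.78, 10.84 and 10.79. The 3 groups did not overlap, and the non-fibrillar arrays were the most spread: the SD was 0.018 in fibrillar collagen, 0.211 in non-fibrillar collagen and 0.031 in Matrigel (n = 3 each). Id3 was 1.40-fold higher in fibrillar than in non-fibrillar collagen (log2 difference 0.49 ± 0.10 SE, adjusted p = 0.041). This call was kept without non-fibrillar replicate 2 (adjusted p = 0.038) and lost without any other array of the 6, with adjusted p from 0.101 to 0.142, and array weights gave 0.054, while the difference stayed between 0.40 and 0.61 log2 units over all alternatives. In non-fibrillar collagen Id3 was 1.75-fold lower than in Matrigel (-0.80 ± 0.086, adjusted p = 0.00033). In fibrillar collagen it was at -0.31 ± 0.086 against Matrigel, which missed the threshold (adjusted p = 0.082, and 0.011 in a fit of these 6 arrays alone).

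Id2 had the smallest p of the 10 genes in both comparisons with Matrigel. It read 11.97, 11.96 and 11.94 in fibrillar collagen, 11.72, 11.85 and 11.76 in non-fibrillar collagen, and 12.24, 12.28 and 12.33 in Matrigel. Each group kept to a range of its own, with every Matrigel array above every collagen array. Id2 was 1.25-fold lower in fibrillar collagen than in Matrigel (-0.32 ± 0.046, adjusted p = 0.0058) and 1.42-fold lower in non-fibrillar collagen than in Matrigel (-0.51 ± 0.046, adjusted p = 0.00014). Between the collagens its difference was 0.18 ± 0.045 and did not pass (adjusted p = 0.068, and 0.041 in a fit of all 9 arrays).

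Id1 differed less. Its values were 10.60, 10.63 and 10.66 in fibrillar collagen, 10.32, 10.63 and 10.50 in non-fibrillar collagen, and 10.67, 10.85 and 10.79 in Matrigel. The collagen groups overlapped, with replicate 2 at the same value in both, and all Matrigel arrays lay above both collagen groups. Id1 was 1.22-fold lower in non-fibrillar collagen than in Matrigel (-0.28 ± 0.076, adjusted p = 0.034). That call was lost without non-fibrillar replicate 1 (0.089) or 3 (0.080), without Matrigel replicate 2 (0.128) or 3 (0.097), and in a fit of the 6 arrays compared (0.090). Fibrillar collagen was at 0.14 ± 0.078 over non-fibrillar collagen (95% interval -0.042 to 0.33, adjusted p = 0.344) and at -0.14 ± 0.076 over Matrigel (-0.31 to 0.030, adjusted p = 0.375).

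Id4, known in the mammary gland from basal cells, read 7.23, 7.55 and 7.51 in fibrillar collagen, 7.40, 7.65 and 7.55 in non-fibrillar collagen, and 7.28, 7.72 and 7.58 in Matrigel. All 3 groups overlapped, and replicate 1 was the lowest array of each. The 95% intervals of its differences were -0.35 to 0.14 for fibrillar over non-fibrillar collagen, -0.37 to 0.17 for fibrillar collagen over Matrigel and -0.26 to 0.28 for non-fibrillar collagen over Matrigel.

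Both inhibitory SMADs were lower in non-fibrillar collagen than in Matrigel. Smad6, which mainly blocks the BMP branch, read 7.62, 7.79 and 7.71 in fibrillar collagen, 7.27, 7.71 and 7.59 in non-fibrillar collagen, and 7.79, 8.07 and 8.08 in Matrigel. The lowest Matrigel array lay just above the highest collagen array, and the collagen groups overlapped. Smad6 was 1.37-fold lower in non-fibrillar collagen than in Matrigel (-0.46 ± 0.114, adjusted p = 0.025), a call lost without non-fibrillar replicate 1 (0.062) or 3 (0.054) and without Matrigel replicate 2 (0.099) or 3 (0.089), and in a fit of the 6 arrays compared (0.073). Smad7, which blocks both branches, read 8.59, 8.57 and 8.63 in fibrillar collagen, 8.54, 8.62 and 8.42 in non-fibrillar collagen, and 8.77, 8.94 and 8.80 in Matrigel. Its collagen groups overlapped with each other and lay below all Matrigel arrays. Smad7 was 1.24-fold lower in non-fibrillar collagen than in Matrigel (-0.31 ± 0.063, adjusted p = 0.0098), and this call held whichever array was left out. In fibrillar collagen over Matrigel, Smad6 was at -0.28 ± 0.114 (adjusted p = 0.241) and Smad7 at -0.24 ± 0.063 (adjusted p = 0.071). Between the collagens the intervals were -0.088 to 0.45 for Smad6 and -0.068 to 0.21 for Smad7.

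Klf10, a transcription factor induced early by TGF-beta that represses Smad7, was lower in both collagens than in Matrigel. It read 8.75, 8.76 and 8.73 in fibrillar collagen, 8.63, 8.71 and 8.74 in non-fibrillar collagen, and 9.03, 8.98 and 9.07 in Matrigel. The Matrigel arrays stood apart from 6 collagen arrays that overlapped. Klf10 was 1.21-fold lower in fibrillar collagen than in Matrigel (-0.28 ± 0.043, adjusted p = 0.0083) and 1.26-fold lower in non-fibrillar collagen than in Matrigel (-0.34 ± 0.043, adjusted p = 0.00091). Neither call was lost when an array was left out. Between the collagens its interval was -0.043 to 0.16.

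Skil, which encodes the SMAD co-repressor SnoN, had its highest values in non-fibrillar collagen. It read 8.48, 8.47 and 8.29 in fibrillar collagen, 8.56, 8.66 and 8.62 in non-fibrillar collagen, and 8.44, 8.49 and 8.39 in Matrigel. The non-fibrillar arrays did not overlap with either other group, which overlapped with each other. Neither difference passed: fibrillar over non-fibrillar collagen was at -0.20 ± 0.061 (adjusted p = 0.113), and non-fibrillar collagen over Matrigel at 0.18 ± 0.058 (adjusted p = 0.079, and 0.034 after quantile normalization again).

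The ligand and the decoy receptor passed the test in 0 comparisons. Bmp4, a BMP ligand, read 4.72, 4.77 and 4.72 in fibrillar collagen, 4.66, 4.72 and 4.64 in non-fibrillar collagen, and 4.85, 4.72 and 4.71 in Matrigel. Bambi, a receptor-like protein without a kinase domain that dampens TGF-beta and BMP receptors, read 6.67, 6.59 and 6.51 in fibrillar collagen, 6.66, 6.58 and 6.50 in non-fibrillar collagen, and 6.61, 6.57 and 6.58 in Matrigel. All groups overlapped for both genes. For Bmp4 the 95% intervals were -0.029 to 0.15 for fibrillar over non-fibrillar collagen and -0.13 to 0.085 for fibrillar collagen over Matrigel. For non-fibrillar collagen over Matrigel the Bmp4 interval was -0.20 to 0.022. The widest interval of Bambi was -0.14 to 0.15, for fibrillar over non-fibrillar collagen. Bmp4 was among the dimmest 25% of genes by mean signal, and detection calls were not used here, so whether it was expressed was not tested.

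**Figure D2:**
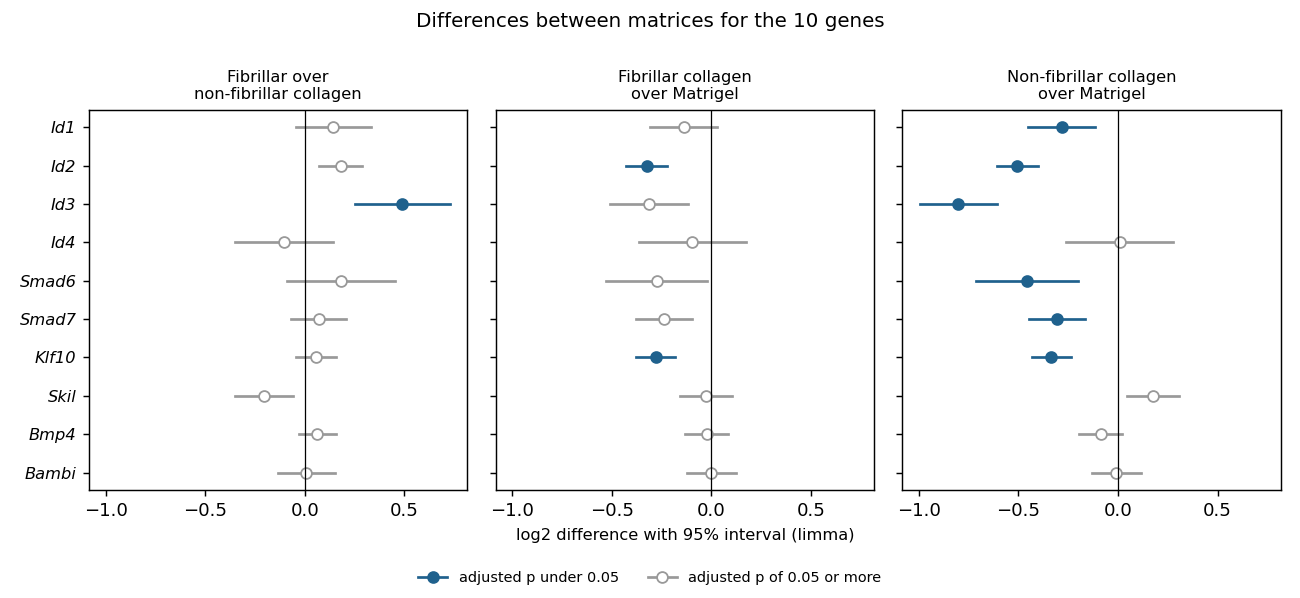
Log2 differences of the 10 genes in 3 comparisons (x axis; points are limma estimates, lines their 95% intervals, n = 3 arrays per group, filled points pass at an adjusted p under 0.05). Id3 alone is filled for fibrillar over non-fibrillar collagen, Id2 and Klf10 for fibrillar collagen over Matrigel, and 6 genes for non-fibrillar collagen over Matrigel.

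Set against all genes, 1 of the 10 was higher in fibrillar than in non-fibrillar collagen, where 2.71% of all genes were called higher. Of the 10, 2 were lower in fibrillar collagen than in Matrigel (2.37% of all genes), and 6 were lower in non-fibrillar collagen than in Matrigel (7.07% of all genes). The groups did not overlap for 3 of the 10 between the collagens (25.2% of all genes, either direction), for 6 that were lower in fibrillar collagen than in Matrigel (11.3%), and for 7 between non-fibrillar collagen and Matrigel (28.4%, either direction). The median difference of the 10 was 0.066 log2 units for fibrillar over non-fibrillar collagen, -0.19 for fibrillar collagen over Matrigel and -0.30 for non-fibrillar collagen over Matrigel, beside medians of 0.0080, 0.0028 and 0.00061 over all genes. The shares of all genes called the other way were 3.69% lower in fibrillar than non-fibrillar collagen, 1.45% higher in fibrillar collagen than in Matrigel and 6.75% higher in non-fibrillar collagen than in Matrigel, and the counts of the pathway lists that follow stand beside these 6 shares. Each pair of comparisons shares 1 group of arrays, so their results are not independent of each other. The 10 genes were chosen with earlier results of these data known, so the shares are a description and not a test against all genes.

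Among 18 SMADs and SMAD regulators, Smad9 and Nedd4l were higher in fibrillar than in non-fibrillar collagen and lower in non-fibrillar collagen than in Matrigel. Smad9, a BMP-branch SMAD, read 6.96, 7.04 and 7.10 in fibrillar collagen, 6.06, 6.60 and 6.19 in non-fibrillar collagen, and 7.29, 7.66 and 7.31 in Matrigel. Its groups did not overlap. It was 1.68-fold higher in fibrillar than in non-fibrillar collagen (0.75 ± 0.135, adjusted p = 0.030) and 2.20-fold lower in non-fibrillar collagen than in Matrigel (-1.14 ± 0.137, adjusted p = 0.00060). The first of these calls was lost without any array but non-fibrillar replicate 2 (adjusted p up to 0.122). Nedd4l, a ubiquitin ligase that targets activated Smad2 and Smad3, was 1.41-fold higher in fibrillar than in non-fibrillar collagen (0.50 ± 0.052, adjusted p = 0.0078, and 0.056 without fibrillar replicate 3) and 1.75-fold lower in non-fibrillar collagen than in Matrigel (-0.81 ± 0.053, adjusted p = 2.1e-05). In fibrillar collagen it was also lower than in Matrigel (-0.31 ± 0.053, adjusted p = 0.013), a call lost without fibrillar replicate 1 or Matrigel replicate 2 (adjusted p up to 0.056).

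Smad3, which carries TGF-beta and activin signals, ran the other way. It was 1.27-fold higher in fibrillar collagen than in Matrigel (0.34 ± 0.049, adjusted p = 0.0058) and 1.29-fold higher in non-fibrillar collagen than in Matrigel (0.37 ± 0.049, adjusted p = 0.0010), and the calls held whichever array was left out. Between the collagens, 2 of the 18 were higher in the fibrillar form and 0 lower; 1 was higher and 2 lower in fibrillar collagen than in Matrigel, and 3 were higher and 3 lower in non-fibrillar collagen than in Matrigel. Besides the 3 genes above, the counts rest on Ctdsp1, Pmepa1 and Stub1, named after their values were seen. Ctdsp1, a phosphatase that can act on SMADs, was lower in fibrillar collagen than in Matrigel (-0.26 ± 0.060, adjusted p = 0.046), a call lost without any 1 array (0.051 to 0.126), in a fit of the 6 arrays compared (0.116) and after quantile normalization again (0.074). It was also lower in non-fibrillar collagen than in Matrigel (-0.48 ± 0.060, adjusted p = 0.00075). Pmepa1, a TGF-beta-induced inhibitor of SMAD activation (0.26 ± 0.054, adjusted p = 0.010), and Stub1, a ubiquitin ligase (0.27 ± 0.077, adjusted p = 0.042), were higher in non-fibrillar collagen than in Matrigel. The call of Stub1 was lost in a fit of the 6 arrays compared (0.071) and without any 1 array but Matrigel replicate 1 (up to 0.138). The medians of the 18 were 0.042, -0.00044 and -0.078 log2 units.

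Of 16 other BMP and activin-family ligands, Bmp1 was the only one called between the collagens, higher in fibrillar collagen (0.17 ± 0.032, adjusted p = 0.034; a block for the replicate number gave 0.065); it encodes a procollagen-cutting protease and not a BMP-type ligand, and its call was lost without any 1 array. It was also lower in non-fibrillar collagen than in Matrigel (-0.14 ± 0.036, adjusted p = 0.027, kept only without Matrigel replicate 1). Inhba, the activin A subunit, was 1.42-fold lower in fibrillar collagen than in Matrigel (-0.50 ± 0.060, adjusted p = 0.0021) and 1.25-fold lower in non-fibrillar collagen than in Matrigel (-0.33 ± 0.060, adjusted p = 0.0056). Bmp7 was at 0.15 ± 0.053 for fibrillar over non-fibrillar collagen and 0.24 ± 0.067 for fibrillar collagen over Matrigel, and passed in neither (adjusted p = 0.159 and 0.084; array weights gave 0.046 for the second, and leaving out Matrigel replicate 1 gave 0.031). The medians of the 16 were 0.051, 0.031 and -0.0039.

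Of 15 receptors and co-receptors, 0 passed for fibrillar over non-fibrillar collagen or over Matrigel in limma; the smallest p were those of Bmpr2 (0.19 ± 0.044, unadjusted p = 0.0042, adjusted p = 0.057) for the first and Tgfbr1 (-0.16 ± 0.054, unadjusted p = 0.012, adjusted p = 0.136) for the second. Bmpr2, the type II BMP receptor, passed in a fit of all 9 arrays (0.033), after quantile normalization again (0.042), without the dimmest 25% of genes (0.040) and with a trended robust prior (0.035). In non-fibrillar collagen, 2 were lower than in Matrigel. They were Tgfbr2, the type II TGF-beta receptor (-0.21 ± 0.042, adjusted p = 0.0090), and the co-receptor Tgfbr3 (-0.30 ± 0.080, adjusted p = 0.033), which lost its call without non-fibrillar replicate 1 or 2 or Matrigel replicate 2 or 3 (adjusted p up to 0.109), and in a fit of the 6 arrays compared (0.091). Medians were 0.026, -0.022 and -0.052.

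Secreted antagonists were higher in collagen than in Matrigel where they passed. Fst, follistatin, which binds activin, was 1.39-fold higher in fibrillar collagen than in Matrigel (0.48 ± 0.110, adjusted p = 0.046) and 1.62-fold higher in non-fibrillar collagen than in Matrigel (0.69 ± 0.110, adjusted p = 0.0028). The first call was kept only without Matrigel replicate 1 and lost without any other array (adjusted p up to 0.137), and also in a fit of the 6 arrays compared (0.070). Fstl3, a follistatin relative that also binds activin, was 1.31-fold higher in non-fibrillar collagen than in Matrigel (0.39 ± 0.068, adjusted p = 0.0043). Of 14 antagonists measured, 0 passed between the collagens (smallest unadjusted p = 0.022, for Chrdl1), 1 was higher in fibrillar collagen than in Matrigel and 3 were higher in non-fibrillar collagen than in Matrigel, with 0 lower. The last of these 3 was Htra1, a secreted protease (0.27 ± 0.054, adjusted p = 0.0084), named after its values were seen. The medians of the 14 were 0.029, 0.027 and -0.018, the last opposite in sign to the called genes.

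**Figure D3:**
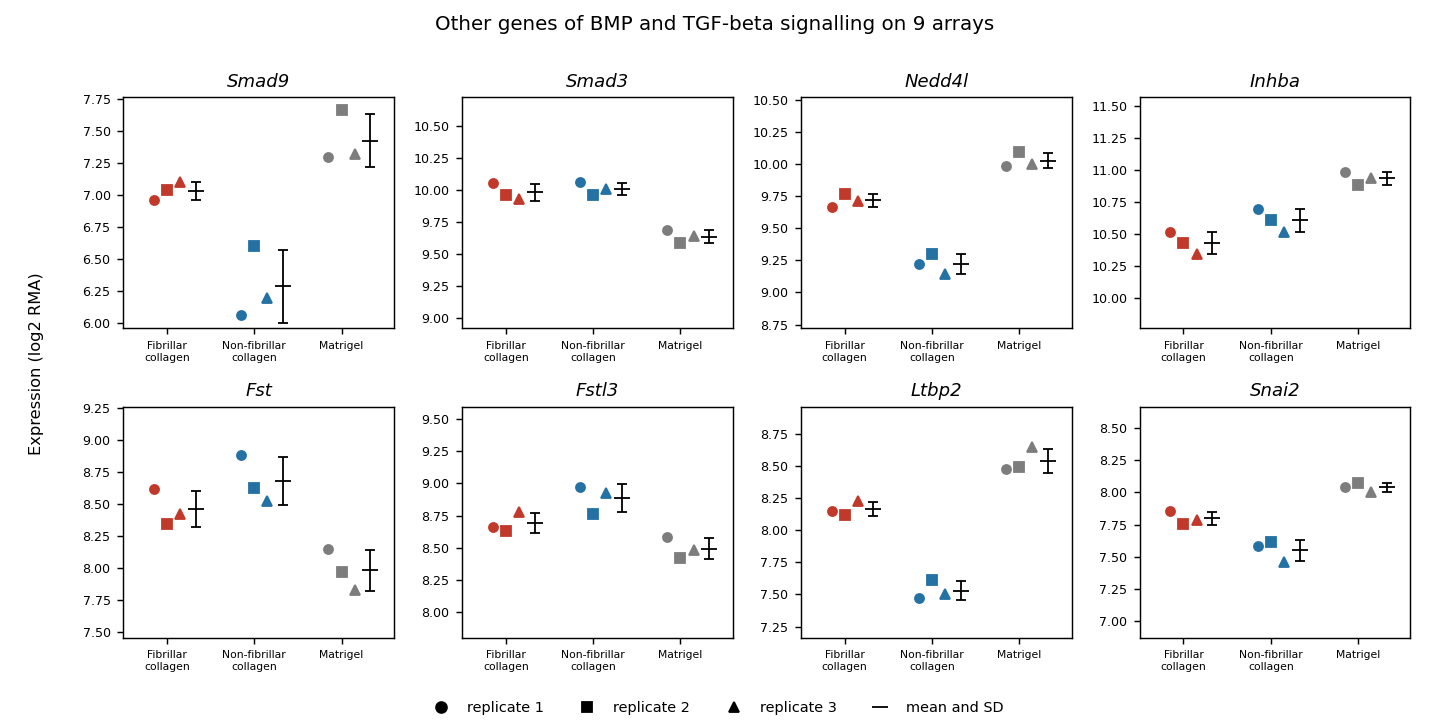
Expression of 8 other genes of BMP and TGF-beta signalling (log2 RMA, y axis, each panel spanning 1.8 log2 units) on each of 9 arrays, by matrix, with the mean and SD beside each group (n = 3). Smad9, Nedd4l, Ltbp2 and Snai2 are lowest in non-fibrillar collagen and highest in Matrigel, whereas Smad3, Fst and Fstl3 are lowest in Matrigel.

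Of 21 other genes known to be induced by SMADs, Ltbp2 and Snai2 had the smallest p in all 3 comparisons. Ltbp2, a matrix protein of the latent TGF-beta binding family, was 1.55-fold higher in fibrillar than in non-fibrillar collagen (0.63 ± 0.052, adjusted p = 0.0049). It was 1.30-fold lower in fibrillar collagen than in Matrigel (-0.37 ± 0.060, adjusted p = 0.0095) and 2.01-fold lower in non-fibrillar collagen than in Matrigel (-1.01 ± 0.060, adjusted p = 1.1e-05). Snai2, the repressor Slug, was at 0.25 ± 0.053 for fibrillar over non-fibrillar collagen (adjusted p = 0.047; a block for the replicate number gave 0.058, array weights 0.051 and leaving out any 1 array 0.098 to 0.129, each of which ended the call). It was 1.18-fold lower in fibrillar collagen than in Matrigel (-0.24 ± 0.051, adjusted p = 0.030, 0.052 after quantile normalization again, and among single arrays left out kept only without fibrillar replicate 1) and 1.40-fold lower in non-fibrillar collagen than in Matrigel (-0.49 ± 0.051, adjusted p = 0.00028). Ccn2, a matricellular protein induced by TGF-beta and by YAP, went against them and is named after its values were seen. It was 1.83-fold higher in non-fibrillar collagen than in Matrigel (0.87 ± 0.109, adjusted p = 0.00076) and, in fibrillar collagen, lower than in non-fibrillar collagen (-0.59 ± 0.129, adjusted p = 0.048, kept only without non-fibrillar replicate 1). Counts for the 21 were 2 higher and 1 lower for fibrillar over non-fibrillar collagen, 0 higher and 3 lower in fibrillar collagen than in Matrigel (the third, Hey1, lost its call without any 1 array but Matrigel replicate 1, with adjusted p up to 0.119), and 2 higher and 4 lower in non-fibrillar collagen than in Matrigel, with medians of 0.054, 0.017 and 0.022.

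Of 13 basic helix-loop-helix genes, the partners and targets of Id proteins, 0 passed for fibrillar over non-fibrillar collagen or over Matrigel in limma (smallest unadjusted p = 0.0081 for Tcf4 and 0.0085 for Bhlhe40). In non-fibrillar collagen 2 were lower and 1 higher than in Matrigel. The E protein gene Tcf4 was 1.12-fold lower than in Matrigel (-0.17 ± 0.035, adjusted p = 0.012), and Bhlhe40, a repressor tied to the circadian clock, was 1.30-fold lower (-0.38 ± 0.090, adjusted p = 0.021), a call lost without non-fibrillar replicate 2 or Matrigel replicate 1 or 2 (adjusted p up to 0.085). The third was Hes1, a Notch target, which was higher (0.19 ± 0.048, adjusted p = 0.025, up to 0.069 without non-fibrillar replicate 1 or any 1 Matrigel array). Medians were 0.056, 0.0052 and -0.022.

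The genes whose pattern over the 9 arrays was most like that of Id3 were Trps1 (Pearson's r = 0.987), Smad9 (0.986) and Grhl3 (0.982). For Id1 they were Rhof (0.986, a gene with 1 repeated value on several arrays), Smad6 (0.974) and Zscan26 (0.974). These correlations describe the 9 arrays, hold the differences between groups, and come from a search over all genes. After subtraction of group means, r over the 9 arrays was 0.941 for Id1 with Smad6, 0.860 for Id1 with Id3, 0.844 for Id4 with Smad6, 0.826 for Id2 with Id3, 0.812 for Id2 with Smad6 and 0.806 for Id1 with Id2, the 6 highest among all pairs of the 10 genes, against 0.387 for Id2 with Smad7 and -0.573 for Smad7 with Klf10. The mean of each matrix is removed from these values after subtraction, while arrays of different groups still share a replicate number.

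**Figure D4:**
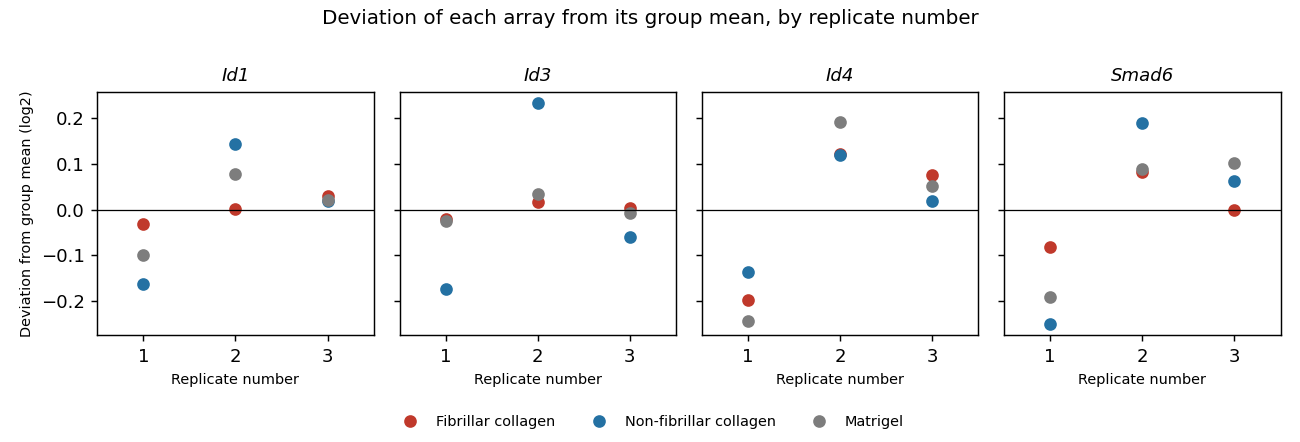
Deviation of each array from the mean of its group (log2, y axis) by replicate number (x axis) for Id1, Id3, Id4 and Smad6, with 1 point per array. Replicate 1 lies below 0 in all 3 groups for each gene, and replicate 2 is above or at 0. The genes shown were picked because replicate 1 was the lowest array of every group.

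Arrays of the same number deviated together for the genes in the figure, which were picked for this order. Replicate 1 was the lowest array of all 3 groups for Id1, Id3, Id4 and Smad6, which is 4 of the 10 genes, against 5.04% of all genes. Bambi ran the other way, with replicate 1 the highest array of each group (6.67, 6.66 and 6.61). Smad7 and Klf10 had no order common to the groups. In same-numbered pairs Id3 was higher in fibrillar than in non-fibrillar collagen by 0.64, 0.27 and 0.56 log2 units for replicates 1, 2 and 3. Id2 was higher in each pair as well, by 0.26, 0.11 and 0.18. What the shared number stands for is not given in the labels, and its part in the results was not tested beyond the fit with a block.

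As a check of the cells, the luminal keratin genes Krt8 and Krt18 averaged 13.26 and 12.85 in fibrillar collagen, 13.27 and 12.90 in non-fibrillar collagen, and 13.13 and 12.62 in Matrigel. Krt18 was called higher in fibrillar collagen than in Matrigel (adjusted p = 0.014) and in non-fibrillar collagen than in Matrigel (adjusted p = 0.0015). Of the other 3 epithelial markers, Cdh1 averaged 9.08, 9.04 and 9.07 in the same order of groups, Epcam 6.10, 6.21 and 5.94, and Krt19 5.43, 5.38 and 5.32, the last 2 near the median of all probe sets or below it. Epcam was called higher in non-fibrillar collagen than in Matrigel (0.28 ± 0.051, adjusted p = 0.0058), and Cdh1 and Krt19 in 0 comparisons. Summed on the linear scale and returned to log2, the 5 ranged from 14.09 to 14.18 in fibrillar collagen, 14.12 to 14.17 in non-fibrillar collagen and 13.95 to 13.96 in Matrigel. Some genes used as markers of other cell types moved with the Id genes. Of 5 macrophage markers, Cd68, also a general lysosomal protein, was called in all 3 comparisons and was 2.61-fold lower in non-fibrillar collagen than in Matrigel (-1.38 ± 0.081, adjusted p = 1.1e-05), while Csf1r, Adgre1, Ptprc and Tyrobp were called in 0 and averaged between 3.95 and 5.66 in all groups. Summed in the same way, these 5 ranged from 8.81 to 9.04 in fibrillar collagen, 8.26 to 8.33 in non-fibrillar collagen and 9.22 to 9.37 in Matrigel. Of 5 fibroblast markers only Pdgfra, a growth factor receptor of mesenchymal cells, was called, 2.01-fold lower in non-fibrillar collagen than in Matrigel (-1.01 ± 0.094, adjusted p = 0.00015) and higher in fibrillar than in non-fibrillar collagen (0.67 ± 0.095, adjusted p = 0.015, and up to 0.081 without fibrillar replicate 2 or 3 or non-fibrillar replicate 1 or 2). That list summed to 11.01 to 11.21, 10.41 to 10.71 and 11.28 to 11.52 in the same order of groups. Its sums are mostly Pdgfra, and its median difference for non-fibrillar collagen over Matrigel was -0.071. Of 5 endothelial markers only Kdr was called, lower in non-fibrillar collagen than in Matrigel (-0.47 ± 0.085, adjusted p = 0.0055), and the list summed to 7.57 to 7.59, 7.38 to 7.55 and 7.53 to 7.64. All groups were the same line, so these lists are given as expression within that line and not as numbers of other cell types. The part of these markers in the differences of the Id and SMAD genes was not tested. In bulk samples a change in the share of cells expressing a gene and a change in RNA per cell cannot be told apart.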

How the data were processed

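Values were log2 expression per probe set in the deposited table. The submitters' processing notes name Affymetrix Power Tools and RMA, with no version or setting given in the sources used here. RMA brings the probe intensities of all arrays to 1 distribution, though not exactly the probe set values. A shift common to most genes would therefore not be seen. Array medians ran from 5.98 to 6.05, and no pair of the 9 arrays was a duplicate (closest pair 0.127 log2 units apart on average). The platform annotation gave 21789 of 35512 probe sets 1 gene symbol, 1621 several and left 12102 unnamed here; the probe set with the highest mean was used per gene, giving 19938 genes. The number of arrays limits the precision, and no label says that replicates were separate cultures; p-values then reflect the spread among these arrays alone, which may be technical.

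Differences were fitted with limma 3.58.1 in R 4.3.3 (lmFit, eBayes; two-sided; Benjamini-Hochberg over all genes; threshold 0.05). The collagens were compared in their own 6 arrays and Matrigel comparisons in a fit of all 9. Errors are limma's SE. The code was tested on simulated data. From each pathway list the 2 genes with the smallest p per comparison are named. Differences that did not pass and are given only here were, between the collagens, Tgfbr3 (0.21 log2 units), Fstl3 (-0.20) and Hes1 (-0.10). For fibrillar collagen over Matrigel they were Tgfbr2 (-0.12), Htra1 (0.17) and Tal1 (0.14). Other genes are marked as such or named because a count turns on them. For Id1 and Id3 the 3 genes of most similar pattern are named, predicted genes left out. The members and lists were chosen with earlier results of these data known. Deviations from group means correlated over genes at r = 0.221, 0.143 and 0.242 between same-numbered fibrillar and non-fibrillar arrays, so the numbers were taken to pair them, from the data and not a label; the comparison was kept without a block. Alternatives changed the arrays fitted, the block, the normalization, a filter on dim genes, probe set averaging, the prior, array weights and the threshold, or left out each array. No array was left out of the main results.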

Additional observations from a re-analysis of the deposited data

How the results depend on the processing

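Over the alternatives for the 10 genes, 400 of 447 values kept direction and side of the threshold. Between the collagens, where 1 gene (Id3) was called, 2 were called (Id2 and Id3) in a fit of all 9 arrays, after quantile normalization again, without the dimmest 25% of genes (which leaves out Bmp4) and with a trended robust prior. With array weights or a threshold of 0.01, 0 were called (limma; 3 had an unadjusted p under 0.05 in both), and leaving out 1 array gave 0 to 1. With the replicate block 1 gene was called (Id3), as in the unblocked fit. Same-numbered arrays did not all correlate above 0.1 in the Matrigel comparisons, though all 6 arrays of each were closest to their own number. The r were 0.253, 0.103 and 0.097 for fibrillar collagen, and 0.125, 0.045 and 0.135 for non-fibrillar collagen. For fibrillar collagen over Matrigel the block gave 3 calls in place of 2, adding Smad6 (limma adjusted p = 0.042). A fit of the 6 arrays compared added Id3 (0.011) there. For non-fibrillar collagen over Matrigel the block gave the same number, 6. The fit of the 6 arrays compared lost Id1 (0.090) and Smad6 (0.073) and added Skil as higher (0.04996). A threshold of 0.01 also lost Id1 and Smad6 there.

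The sign turned only for genes that were not called, and the cause was not tested. For fibrillar over non-fibrillar collagen Bambi was at -0.0094 after quantile normalization again and from -0.034 to 0.047 without single arrays. For fibrillar collagen over Matrigel, leaving out single arrays gave -0.22 to 0.0031 for Id4, -0.061 to 0.034 for Skil, -0.051 to 0.022 for Bmp4 and -0.041 to 0.039 for Bambi; quantile normalization again took Skil to 0.011 and Bambi to 0.020, and array weights Bambi to 0.0060. For non-fibrillar collagen over Matrigel, Id4 was at -0.034 with array weights and from -0.11 to 0.10 without single arrays. Bambi was at 0.029 after quantile normalization again, 0.0027 with array weights and from -0.048 to 0.033 without single arrays.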

Other observations

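Atoh8 and Hey1, transcription factor genes induced by BMP signalling in endothelial cells, are given here after their values were seen. They belong to the 21 other genes known to be induced by SMADs, which had no common direction. For non-fibrillar collagen over Matrigel, 4 of the 21 were called lower, these genes included, and 2 higher, Ccn2 and Hes1. Of the 21, 12 had a positive difference there, with a median of 0.022 log2 units. Atoh8 read 6.78, 7.03 and 7.22 in fibrillar collagen, 6.50, 6.57 and 6.81 in non-fibrillar collagen, and 7.15, 7.59 and 7.76 in Matrigel. The Matrigel arrays lay above all non-fibrillar arrays and overlapped with the fibrillar ones. Atoh8 was lower in non-fibrillar collagen than in Matrigel (-0.87 ± 0.160 SE, limma adjusted p = 0.0058) and at -0.49 ± 0.160 in fibrillar collagen over Matrigel (adjusted p = 0.137).

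Hey1 read 10.22, 10.38 and 10.37 in fibrillar collagen, 10.02, 10.20 and 10.25 in non-fibrillar collagen, and 10.56, 10.69 and 10.77 in Matrigel. It was lower in non-fibrillar collagen than in Matrigel (-0.51 ± 0.076, adjusted p = 0.0020), and lower in fibrillar collagen than in Matrigel (-0.35 ± 0.076, adjusted p = 0.038, among single arrays left out kept only without Matrigel replicate 1, and 0.061 in a fit of the 6 arrays compared). In both genes replicate 1 was the lowest array of each group, as for Id1 and Smad6.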
